A study of Mus musculus with 17 samples.

Results

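Expression of 10 elastic fibre and microfibril genes was examined in the left ventricular apex, the tip of the main pumping chamber, of mice with and without pressure overload. The genes were taken by their symbols, Eln, Fbn1, Fbln1, Fbln2, Fbln5, Efemp2, Mfap2, Mfap4, Mfap5 and Emilin1. All 10 were present once among the 21798 gene symbols with deposited values, and all 10 were among the 16218 genes that passed the filter on low values.

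Bulk RNA-sequencing gave 17 libraries of polyadenylated RNA, each from a mouse with its own animal number. The mice were male C57Bl6/J, aged 7 to 8 weeks at surgery, and were killed 3 weeks after it. Transverse aortic constriction (TAC), a ligature that narrows the aortic arch and loads the left ventricle with pressure, was compared with Sham surgery, in which the ligature is left out. From 1 week after surgery both arms were gavaged with 29P at 50 μg/kg or with saline vehicle (Veh), 29P being an oral prodrug of a cyclic peptide that mimics the Arg-Gly-Asp (RGD) integrin-binding motif and prefers integrin αvβ3. The Veh mice gave 5 libraries after Sham surgery (Sham Veh) and 3 after TAC (TAC Veh), and the 29P mice gave 3 (Sham 29P) and 6 (TAC 29P). No allele or transgene separated the groups. Libraries are named by group and library number, as in TAC Veh 12. Expression is given as CPM, the reads on a gene scaled to the same total in every library, and the estimated depth was 14.2 to 23.8 M reads per library.

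Elastic fibres give the artery wall, valves and interstitium their recoil. A core of cross-linked elastin is laid down on a scaffold of microfibrils, whose backbone is fibrillin, and fibulins, microfibril-associated glycoproteins (MAGPs) and emilins sit at the interface of core and scaffold. Microfibrils also hold latent TGF-β in the matrix through latent TGF-β binding proteins, and several of their proteins are ligands of RGD-binding integrins. In the heart these proteins are made mainly by fibroblasts and vascular smooth muscle cells.

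The tissue label was checked against marker genes before the results. The 6 cardiomyocyte markers, led by Myh6, summed to between 29766 and 46627 CPM in every library. A group of 3 libraries stood apart, since atrial transcripts were abundant in Sham Veh 19, Sham Veh 20 and TAC 29P 18. Atrial myosin light chain Myl7 was at 895, 723 and 335 CPM in these 3 and at no more than 1.002 CPM in the other 14, and sarcolipin (Sln) was at 441, 332 and 162 CPM against no more than 0.627 CPM. The 6 atrial markers together, of which Nppa was the most abundant, summed to 6341, 5253 and 4676 CPM in these 3, and from 141 CPM in Sham 29P 14 to 4506 CPM in TAC Veh 2 among the others, where most of the sum was Nppa. The same 3 libraries form 1 of the 4 runs into which the animal numbers fall, and the labels do not call the runs batches. In this run there was no TAC Veh and no Sham 29P library. Results are therefore also given over the 14 other libraries.

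Of the 10 genes 6 encode the tripeptide that 29P mimics, which alone does not show that a protein binds integrins. In the GENCODE vM21 annotation of mm10, in-frame RGD codons were found once each in Fbn1, Fbln2, Fbln5, Mfap4, Mfap5 and Emilin1, and in none of the principal coding sequences of Eln, Fbln1, Efemp2 and Mfap2. Of 21546 protein-coding genes searched in the same way, 7.2% held such codons. The coding bases around them are shown because the drug mimics the tripeptide they encode, with the codons for Arg, Gly and Asp in capitals and 18 bases on each side, 5′ to 3′ on the gene's strand.
Fbn1: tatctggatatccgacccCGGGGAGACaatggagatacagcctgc
Fbln2: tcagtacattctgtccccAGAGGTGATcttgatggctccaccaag
Fbln5: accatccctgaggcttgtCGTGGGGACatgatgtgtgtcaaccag
Mfap4: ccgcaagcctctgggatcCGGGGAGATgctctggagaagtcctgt
Mfap5: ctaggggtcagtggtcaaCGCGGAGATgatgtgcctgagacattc
Emilin1: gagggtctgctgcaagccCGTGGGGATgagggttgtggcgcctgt

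In Fbn1 the RGD codons lie in exon 37 of 65 at chr2:125345973-125345981 on the minus strand, from codon 1543 of 2873. The Fbln2 stretch runs from exon 2 into exon 3 on the plus strand of chromosome 6, with its RGD codons in exon 2 at chr6:91234336-91234344, from codon 421 of 1221. For Fbln5 the codons begin at codon 54 of 448 in exon 4, at chr12:101809927-101809935 on the minus strand. Those of Mfap4 begin at codon 28 of 257 near the end of exon 2, at chr11:61485796-61485804 on the plus strand. The Mfap5 codons begin at codon 30 of 164 and are split by an intron between exons 3 and 4 on the plus strand of chromosome 6, from 122515377 to 122520580. In Emilin1 the motif lies in exon 4 of 8 at chr5:30918148-30918156 on the plus strand, from codon 578 of 1017. The genes differed in the Arg, Gly and Asp codons they used.

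Transcripts of the microfibril scaffold and of most of the proteins that join it to the core were higher after pressure overload, and so were those of elastin. The calls of Eln, Fbln5, Efemp2 and Mfap2 were lost under some alternatives. In Veh mice 9 of the 10 genes were higher after TAC than after Sham surgery, against 22.5% of all genes (7 of 10 against 3.86% after scaling by trimmed means), with log2 fold changes from 1.01 for Fbln5 to 2.23 for Mfap4, and only Fbln1 did not pass the test. The same 9 genes were higher after TAC in 29P-treated mice, against 31.4% of all genes (8 of 10 against 5.73%). Within TAC no gene differed between 29P and Veh mice by the test, and within Sham none did after adjustment for all genes.

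**Figure D1:**
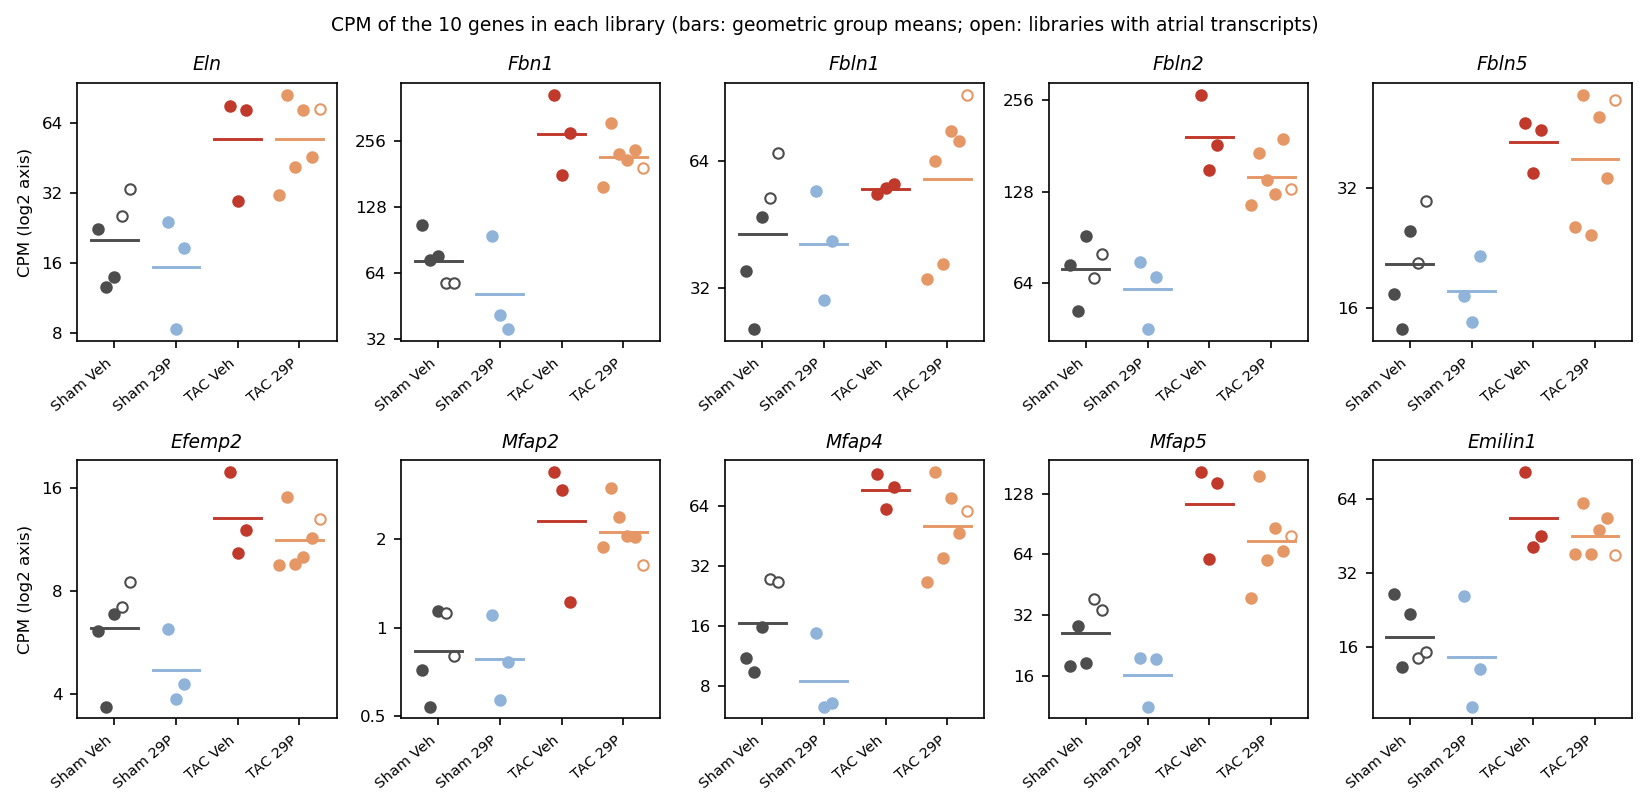
CPM of each of the 10 genes in all 17 libraries on log2 axes, with 1 point per library, bars at the geometric group means and open points for the 3 libraries with atrial transcripts. The TAC points lie above all Sham points of the same treatment arm for 8 genes in Veh and 9 genes in 29P mice, against 27.6% and 25% of all genes, and those of Fbln1 overlap in both.

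Eln encodes tropoelastin, the soluble precursor of the elastic core, and lies at chr5:134702593-134747323 on the minus strand. Its CPM in Sham Veh libraries 5, 6, 13, 19 and 20 was 22.4, 12.7, 14.02, 25.6 and 33.4, and in Sham 29P libraries 4, 14 and 15 it was 24.0, 8.32 and 18.5. TAC Veh libraries 2, 12 and 16 gave 76.3, 29.6 and 72.8, and the 6 TAC 29P libraries ranged from 31.5 to 84.9 with a median of 59.6. TAC Veh 12 was low and fell inside the Sham Veh range, below Sham Veh 20 alone, a library with atrial transcripts, so the Veh groups overlapped through that library, while every TAC 29P library lay above every Sham 29P library. The log2 fold change after TAC was 1.44 in Veh mice (standard error 0.41, limma adjusted p = 0.0220) and 1.83 in 29P mice (standard error 0.40, limma adjusted p = 0.00576).

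Fbn1 encodes fibrillin-1, the backbone of the microfibril, and lies at chr2:125300594-125507993 on the minus strand. Sham Veh libraries 5, 6, 13, 19 and 20 held 106, 73.1, 76.1, 57.5 and 57.7 CPM, and Sham 29P libraries 4, 14 and 15 held 94.3, 40.9 and 35.3 CPM. In TAC Veh libraries 2, 12 and 16 it was at 416, 178 and 279.7 CPM, and across TAC 29P libraries it was between 158 and 308 CPM with a median of 217 CPM. Every TAC library was above every Sham library. The log2 fold change was 1.93 in Veh mice (standard error 0.31, limma adjusted p = 0.00137) and 2.07 in 29P mice (standard error 0.30, limma adjusted p = 0.000886).

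Mfap2 and Mfap5 encode MAGP-1 and MAGP-2, small glycoproteins bound to fibrillin, and Mfap4 encodes a fibrinogen-like protein that binds elastin and microfibrils. Mfap4, at chr11:61485431-61488900 on the plus strand, held 11.1, 9.40, 15.8, 27.3 and 26.7 CPM in Sham Veh libraries 5, 6, 13, 19 and 20 and 14.7, 6.27 and 6.51 CPM in Sham 29P libraries 4, 14 and 15. It was at 92.6, 61.6 and 79.8 CPM in TAC Veh libraries 2, 12 and 16, and at 26.5 to 94.7 CPM in TAC 29P libraries, with a median of 53.4 CPM. The lowest TAC 29P library, number 1, thus reached only the level of Sham Veh 19 and 20, the libraries with atrial transcripts. Mfap4 had the largest log2 fold change of the 10 genes in both arms, 2.23 in Veh (standard error 0.41, limma adjusted p = 0.00291) and 2.59 in 29P mice (standard error 0.40, limma adjusted p = 0.00132).

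Mfap5, at chr6:122505845-122529290 on the plus strand, held 18.002, 28.2, 18.6, 38.6 and 33.9 CPM in Sham Veh libraries 5, 6, 13, 19 and 20 and 19.6, 11.3 and 19.5 CPM in Sham 29P libraries 4, 14 and 15. TAC Veh libraries 2, 12 and 16 held 164, 61.0 and 145 CPM, and TAC 29P libraries held 39.0 to 157 CPM with a median of 72.6 CPM. The groups of each arm did not overlap, and TAC Veh 12 was below the median of the TAC 29P libraries. The log2 fold change was 2.11 in Veh mice (standard error 0.39, limma adjusted p = 0.00290) and 2.19 in 29P mice (standard error 0.38, limma adjusted p = 0.00211). Mfap2, at chr4:141010418-141015984 on the plus strand, was the least abundant of the 10, at 0.537 to 1.14 CPM in the 8 Sham libraries and 1.23 to 3.39 CPM in the 9 TAC libraries. Its log2 fold changes of 1.47 in Veh (limma adjusted p = 0.0106) and 1.44 in 29P mice (limma adjusted p = 0.00859) rest on few reads per library.

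The fibulins are glycoproteins with strings of EGF-like repeats that connect tropoelastin, fibrillin and the cell surface. Fbln2, at chr6:91212455-91272540 on the plus strand, held 73.1, 51.6, 91.5, 66.3 and 79.9 CPM in Sham Veh libraries 5, 6, 13, 19 and 20 and 75.3, 45.0 and 67.0 CPM in Sham 29P libraries 4, 14 and 15. In TAC Veh libraries 2, 12 and 16 it was at 267, 151 and 182 CPM, and in TAC 29P libraries at 116 to 190.4 CPM with a median of 136 CPM. All TAC values lay above all Sham values, with log2 fold changes of 1.45 in Veh (limma adjusted p = 0.00116) and 1.24 in 29P mice (limma adjusted p = 0.00210).

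Fbln5 (fibulin-5) and Efemp2 (fibulin-4) are both needed to assemble elastin, fibulin-4 also by bringing lysyl oxidase to it. Fbln5, at chr12:101746565-101819055 on the minus strand, was between 14.2 and 29.7 CPM in Sham Veh, 14.8 and 21.6 CPM in Sham 29P, 34.8 and 46.4 CPM in TAC Veh and 24.3 and 54.6 CPM in TAC 29P libraries. Efemp2, at chr19:5473954-5482517 on the plus strand, was between 3.67 and 8.49, 3.88 and 6.18, 10.3 and 17.8, and 9.52 and 15.04 CPM in the same 4 groups. Neither gene overlapped between TAC and Sham within an arm. For Fbln5 the log2 fold changes of 1.01 in Veh (limma adjusted p = 0.0183) and 1.10 in 29P mice (limma adjusted p = 0.00932) were the smallest of the 9 that rose in each arm.

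Fbln1 (fibulin-1), which binds fibronectin and basement membrane proteins as well as elastic fibres, was the exception. It lies at chr15:85205949-85286535 on the plus strand. Sham Veh libraries 5, 6, 13, 19 and 20 held 35.2, 25.6, 47.1, 52.2 and 66.9 CPM, Sham 29P libraries 4, 14 and 15 held 54.2, 30.03 and 41.4 CPM, and TAC Veh libraries 2, 12 and 16 held 53.3, 55.2 and 56.3 CPM. The TAC 29P libraries ran from 33.6 to 91.8 CPM with a median of 67.6 CPM. The TAC Veh values were close together and inside the Sham Veh range, through Sham Veh 20 alone, a library with atrial transcripts. The other Sham Veh libraries lay below all of them. The log2 fold change was 0.35 in Veh (95% interval −0.33 to 1.03, limma adjusted p = 0.419) and 0.51 in 29P mice (95% interval −0.14 to 1.17, limma adjusted p = 0.205), so an increase as large as that of Fbln5 in Veh mice lay inside both intervals. Over the 14 libraries without atrial transcripts the value in Veh mice was 0.66 (limma unadjusted p = 0.0546, adjusted p = 0.149).

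Emilin1 encodes a glycoprotein at the elastin-microfibril interface, at chr5:30913402-30921277 on the plus strand. It was between 13.2 and 26.2 CPM in Sham Veh, 9.16 and 25.7 CPM in Sham 29P, 40.9 and 82.5 CPM in TAC Veh and 38.1 and 61.8 CPM in TAC 29P libraries, with no TAC library as low as any Sham library. The log2 fold change was 1.61 in Veh (limma adjusted p = 0.00348) and 1.64 in 29P mice (limma adjusted p = 0.00260). Genes annotated on the opposite strand overlap Eln (Gm30003), Fbn1 (Gm9913), Efemp2 (Mus81) and Mfap4 (Mapk7), and since the strand setting of the read counting is not given in the sources used here, reads of these pairs cannot be told apart.

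The comparison of TAC Veh with Sham Veh asks what pressure overload did without the drug. Of all genes tested 22.5% were higher in it at an adjusted p of 0.05 or less and 1.91% were lower, against 9 of the 10 genes higher and 0 lower. At an unadjusted p of 0.05 by limma, the counts of the 10 genes were again 9 and 0. At that threshold 6065 of the 16218 genes tested were higher and 565 lower. The median log2 fold change was 1.46 over the 10 genes and 0.35 over all genes. The groups did not overlap for 8 of the 10 genes, all but Eln and Fbln1, with the TAC values higher, against 27.6% of genes tested. Over the 14 libraries without atrial transcripts they did not overlap for any of the 10, against 37.4% of genes tested. The study states that a TAC Veh library that clustered with the Sham libraries was removed before deposit and is not analysed here, so the separation of TAC Veh from Sham Veh libraries, and these counts, are conditional on that choice. A shift shared by most genes is visible in these medians. CPM divides by the library total. The share of this total on the 16 genes of the mitochondrial genome averaged 33.5 ± 3.64% (SD over 5 libraries) for Sham Veh, and 26.1 ± 2.22% (SD over 3) for TAC Veh. Factors from the trimmed mean of M values (TMM), which set extreme genes aside, brought the median over all genes to 0.01. Under them 3.86% of all genes were higher and 5.75% lower, and 7 of the 10 genes were, with a median log2 fold change of 1.12. The 2 that lost the call were Eln (1.10, limma adjusted p = 0.0696) and Fbln5 (0.67, limma adjusted p = 0.0899). TMM factors were 1.21, 1.09 and 1.09 in TAC Veh libraries 2, 12 and 16 and 0.789 to 0.960 in Sham Veh libraries. Factors from totals without the mitochondrial genes were 1.10, 1.04 and 1.05, and 0.882 to 1.02, in the same libraries. The part of the mitochondrial share in the shift was not tested.

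Without the 3 libraries with atrial transcripts, a choice made after seeing the data, the same 9 genes were higher after TAC in Veh mice, against 13.4% of all genes, with a median log2 fold change of 1.53. In that fit Mfap4 was at 2.70, Mfap5 at 2.42 and Eln at 1.79. The call of Eln also depended on single libraries, since its adjusted p by limma was 0.133 without TAC Veh 2, 0.0812 without TAC Veh 16 and 0.0527 without Sham Veh 6. Without TAC Veh 2, the highest TAC Veh library for 9 of the 10 genes, Fbln5, Efemp2 and Mfap2 also lost their calls, at adjusted p of 0.101, 0.0866 and 0.0915 by limma, and 5 genes remained higher. Fbln5 lost its call without TAC Veh 16 too (limma adjusted p = 0.0577). Fbn1, Fbln2, Mfap4, Mfap5 and Emilin1 were higher in all 17 fits that each left out 1 library.

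The comparison of TAC 29P with Sham 29P gave 9 of the 10 genes higher, against 31.4% of all genes tested, with 1.12% lower. The median log2 fold change was 1.54 over the 10 genes and 0.37 over all genes. TAC values lay above all Sham values for 9 of the 10 genes, the exception being Fbln1, against 25% of genes tested, and without TAC 29P 18 for the same 9, against 31.5%. With TMM factors 8 of the 10 genes were higher, Fbln5 having lost its call (0.74, limma adjusted p = 0.0513), against 5.73% of all genes (4.96% were lower), and the median over the 10 genes was 1.19. Over the 14 libraries without atrial transcripts 9 of the 10 were higher, against 30.2%. Sham 29P 14, the shallowest library at 14.2 M reads, was the lowest Sham 29P library for 9 of the 10 genes, and without it Eln (limma adjusted p = 0.0568), Fbln5 (limma adjusted p = 0.0654) and Mfap2 (limma adjusted p = 0.0646) lost their calls. A covariate for animal-number runs cost Efemp2 (limma adjusted p = 0.0502) and Mfap2 (limma adjusted p = 0.0899) their calls as well.

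**Figure D2:**
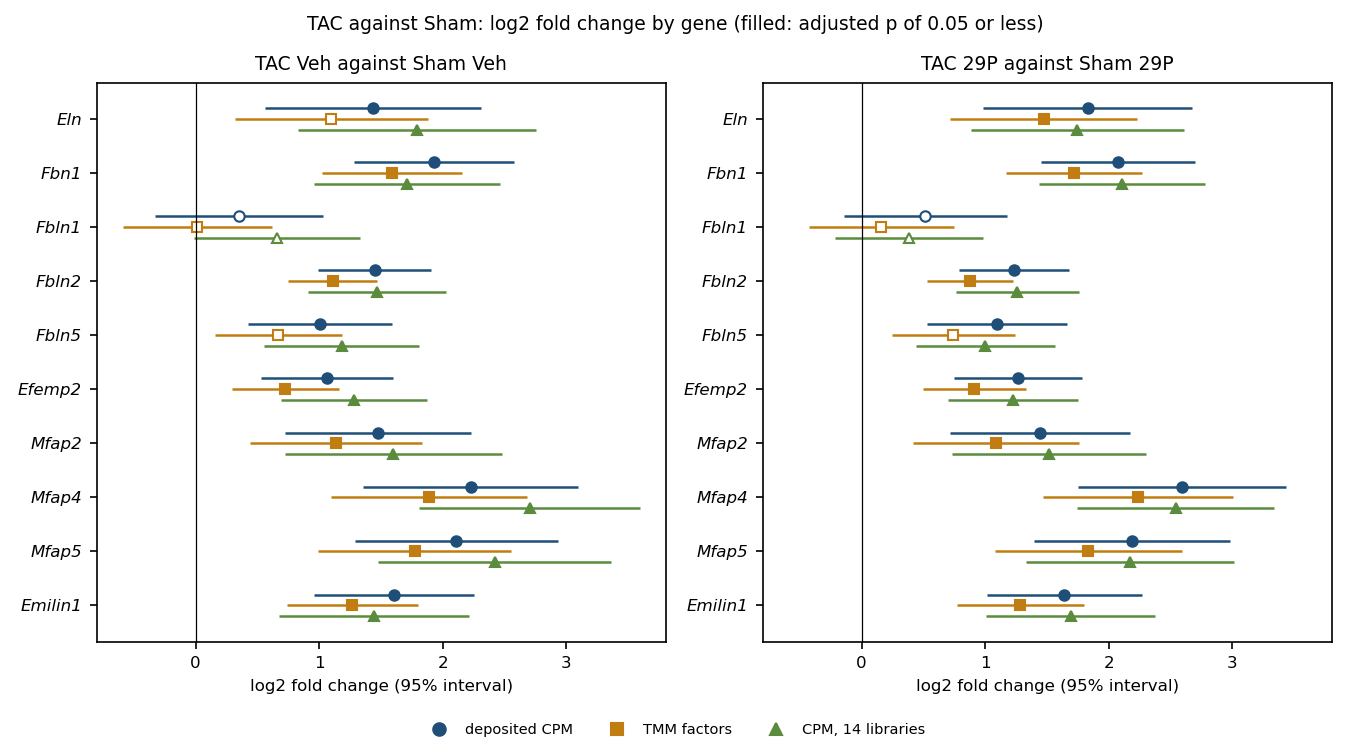
Log2 fold change after TAC of each of the 10 genes in Veh (left) and 29P mice (right), with 95% intervals from limma, on deposited CPM, with TMM factors and on CPM of 14 libraries. Filled points passed an adjusted p of 0.05. All values lie above 0, the intervals of Fbln1 reach below it, and TMM factors place each gene lower by about the shift of all genes.

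Within single runs of animal numbers the direction after TAC was the same. TAC Veh 2 exceeded both Sham Veh libraries of its run for all 10 genes, by a median log2 difference of 2.16, and TAC Veh 12 exceeded Sham Veh 13 of its run for all 10, by 0.99. In the run with 5 TAC 29P libraries and Sham 29P 4, all 5 were above that library for 9 of the 10 genes, by a median of 1.03, and Fbln1 was the exception with a difference of −0.03. The other 2 runs held no TAC and Sham libraries with the same treatment. These differences hold the upward shift of CPM shared by most genes. The TMM factor, by which CPM was divided, was 1.21 for TAC Veh 2 and 0.955 and 0.789 for Sham Veh 5 and 6. The share of all genes above by the same rule was not determined, so the counts give only the direction.

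Within TAC, the comparison of 29P with Veh asks whether the drug altered these transcripts under overload, and no gene passed. By limma 0 of the 10 genes were called at an adjusted p of 0.05, and 0 had an unadjusted p of 0.05 or less. Log2 fold changes ran from −0.61 for Mfap5 (95% interval −1.40 to 0.18) to 0.08 for Fbln1 (95% interval −0.58 to 0.74), with a median of −0.22 over the 10 genes and −0.02 over all genes. Eln was at 0.00 (95% interval −0.84 to 0.85). Of the genes tested 0.931% were lower at an unadjusted p of 0.05 or less. No gene of the 10 was without overlap between both groups, against 0.987% of all genes that were lower without overlap. The lower bound of the interval was −0.58 or below for every gene, so a decrease of that size lay inside the interval of each.

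Among the 10, Fbln2 came nearest to the threshold within TAC, with a log2 fold change of −0.44 (95% interval −0.88 to 0.01, limma unadjusted p = 0.0538). With TMM factors it was −0.41 (limma unadjusted p = 0.0229), and it did not pass adjustment. Without TAC Veh 2 it was −0.21 and without TAC Veh 12 it was −0.62. It passed an unadjusted p of 0.05 by limma in 7 of the 17 fits that each left out 1 library, and in 0 after adjustment. The groups overlapped, since TAC 29P 11, at 190.4 CPM, was above 2 of the 3 TAC Veh libraries. Once animal-number runs entered as a covariate, Fbn1 (−0.76, limma unadjusted p = 0.0152), Mfap4 (−0.99, limma unadjusted p = 0.0387) and Mfap5 (−0.92, limma unadjusted p = 0.0302) had lower values at an unadjusted p of 0.05, which makes 3 of 10 against 1.76% of all genes in that fit, and none passed adjustment. The median over the 10 genes was then −0.50, with all 10 below 0, against −0.08 over all genes. TAC Veh 2 was the only TAC Veh library in a run that also held TAC 29P libraries. In the fit without the covariate, leaving out TAC Veh 2 changed the value from 0.00 to 0.24 for Eln, from −0.34 to −0.04 for Fbn1 and from −0.61 to −0.34 for Mfap5, and without TAC Veh 12 it was −0.44, −0.66 and −1.06, so the size of these values depended on both libraries. Without TAC Veh 2 the values of Efemp2 (0.02), Mfap2 (0.16) and Emilin1 (0.08) were also above 0.

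Within Sham, all 10 genes had values below 0 with 29P, from −0.96 for Mfap4 to −0.08 for Fbln1, with a median of −0.33 against −0.06 over all genes. Without Sham 29P 14 the values of Eln (0.06), Fbln1 (0.14), Mfap2 (0.15) and Emilin1 (0.06) were above 0, and those of the other genes stayed below it. By limma 0 of the 10 passed adjustment. Mfap4 had an unadjusted p = 0.0319 by limma (95% interval −1.83 to −0.09, adjusted p = 0.651), which makes 1 of 10 genes against 5.89% of all genes lower at that threshold. No gene of the 10 was without overlap, against 1.51% of all genes. Over the 14 libraries without atrial transcripts the Mfap4 difference was −0.48 (limma unadjusted p = 0.265), no gene had an unadjusted p of 0.05 or less, and 8 of 10 values were below 0 with a median of −0.20. Sham Veh 19 and 20 lay above the other 3 Sham Veh libraries for Eln, Fbln1, Efemp2, Mfap4 and Mfap5, and below them for Fbn1. The part of the atrial transcripts in these levels was not tested.

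**Figure D3:**
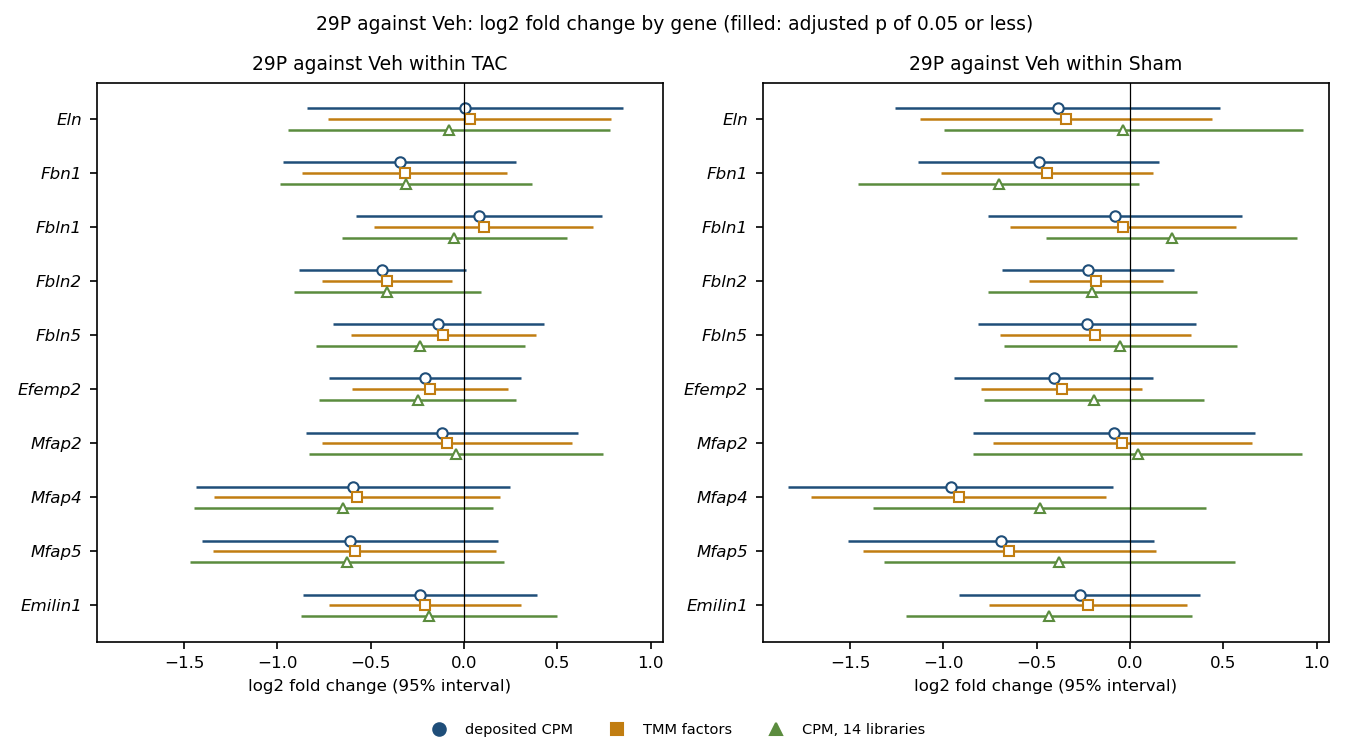
Log2 fold change with 29P against Veh of each of the 10 genes within TAC (left) and within Sham (right), with 95% intervals from limma, on deposited CPM, with TMM factors and on CPM of 14 libraries. No point is filled, since none passed an adjusted p of 0.05, and the Mfap4 interval within Sham lies below 0 except over 14 libraries.

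Whether the 29P difference depended on surgery was tested by the interaction, which compares the drug difference within TAC with that within Sham. None of the 10 genes was called by limma and none had an unadjusted p of 0.05 or less, against 0.863% of all genes on the lower side. On the higher side 321 of the 16218 genes tested passed that threshold. Values ran from −0.21 for Fbln2 to 0.39 for Eln (95% interval −0.82 to 1.61). Since TAC Veh and Sham Veh libraries enter the surgery and drug comparisons alike, the values are not independent. The median interaction over the 10 genes was 0.12, with 2 of 10 values below 0, and over the 14 libraries without atrial transcripts it was −0.12, with 8 of 10 below 0. The Mfap4 difference after TAC was 2.23 in Veh and 2.59 in 29P mice, and over 14 libraries 2.70 and 2.54, so the order of the arms turned. That of Fbn1 was 1.93 and 2.07, and with animal-number runs as a covariate 2.07 and 1.66.

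The 6 genes with RGD codons had log2 fold changes after TAC in Veh mice of 1.93 (Fbn1), 1.45 (Fbln2), 1.01 (Fbln5), 2.23 (Mfap4), 2.11 (Mfap5) and 1.61 (Emilin1). Those without were at 1.44 (Eln), 0.35 (Fbln1), 1.06 (Efemp2) and 1.47 (Mfap2). Within TAC the 4 lowest 29P values, those of Mfap5, Mfap4, Fbln2 and Fbn1, belonged to genes with RGD codons. Fbln5 was at −0.14, and none of these genes passed the test. Without TAC Veh 2 Fbn1 was at −0.04 and Fbln2 at −0.21. Without TAC Veh 12 they were at −0.66 and −0.62. Within Sham the lowest 29P values were those of Mfap4 (−0.96), Mfap5 (−0.69) and Fbn1 (−0.49). Efemp2 (−0.41) and Eln (−0.39), without RGD codons, came next, and Fbln2 was at −0.22. No test was made of the split.

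Levels of different genes were compared per kilobase of exon, as CPM divided by the length of all annotated exons of the gene. In Sham Veh libraries Fbln2 stood first at 11.4 ± 2.34 CPM per kb (SD, n = 5), followed by Fbln1 at 10.4 ± 3.64 and Mfap4 at 9.40 ± 4.43, and these 3 did not differ beyond their spread. Without Sham Veh 19 and 20 Mfap4 was at 6.29 ± 1.74 (SD, n = 3), behind Fbn1 at 7.01 ± 1.49. Mfap5 at 7.66 ± 2.55 and Fbn1 at 6.10 ± 1.62 came next and overlapped as well. Emilin1, Fbln5 and Eln lay between 2.67 and 3.69 CPM per kb, Efemp2 at 1.70 ± 0.470 and Mfap2 at 0.712 ± 0.216. In TAC Veh libraries the order began with Mfap4 at 40.6 ± 8.11 CPM per kb (SD, n = 3), Mfap5 at 34.4 ± 15.2, Fbln2 at 31.4 ± 9.44 and Fbn1 at 24.0 ± 9.86, whose ranges overlapped, and Fbln1 was next at 12.6 ± 0.349. TAC 29P libraries had Mfap4 first at 28.9 ± 12.96 (SD, n = 6), then Fbln2 at 22.9 ± 4.56 and Mfap5 at 22.6 ± 11.3. Orders among neighbours turned with the length used. Per kilobase of the longest transcript Mfap5 stood first in TAC Veh (49.5 ± 22.0) and in TAC 29P libraries (32.6 ± 16.2), ahead of Mfap4 (44.1 ± 8.80 and 31.4 ± 14.1), and Eln was at 5.61 ± 2.22 in Sham Veh and 15.5 ± 6.75 in TAC Veh libraries.

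Shares of the 10 genes in their own summed CPM per kb do not depend on the library total. The share of Fbln1 averaged 17.8 ± 2.91% over the 5 Sham Veh libraries and 22.3 ± 0.854% over the 3 Sham 29P libraries, each with its SD. After TAC it was 7.73 ± 2.45% over the 3 Veh libraries and 10.6 ± 2.91% over the 6 libraries from 29P mice. Mfap4 held 15.9 ± 4.86% in Sham Veh, 10.7 ± 2.49% in Sham 29P, 23.9 ± 2.297% in TAC Veh and 20.8 ± 3.87% in TAC 29P libraries. Mfap5 held 13.7 ± 4.50%, 10.9 ± 1.92%, 19.2 ± 4.72% and 16.2 ± 3.20% in the same order. The Fbln1 shares of TAC libraries were below those of all Sham libraries except in TAC 29P 18, at 15.005%, which was above the 14.5% of Sham Veh 6. Without Sham Veh 19 and 20 the Sham Veh shares were 16.3% for Fbln1 and 12.5% for Mfap4. Eln held 4.605 ± 1.15% in Sham Veh and 4.12 ± 1.07% in TAC Veh libraries.

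**Figure D4:**
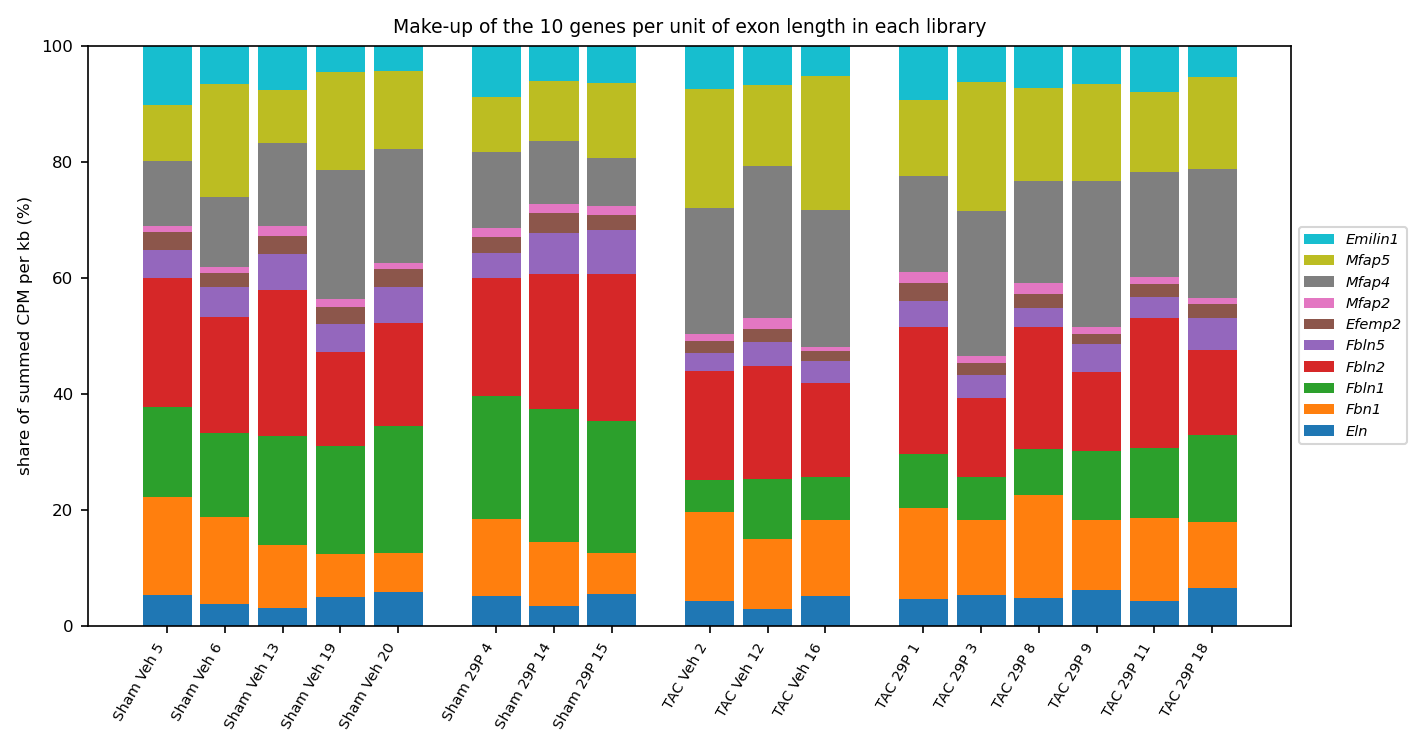
Share of each of the 10 genes in their summed CPM per kilobase of exon, as percent, in stacked bars with 1 bar per library grouped by surgery and treatment. The Fbln1 segment narrows from between 14.5 and 22.8% in Sham to between 5.48 and 15.005% in TAC libraries, while the Mfap4 and Mfap5 segments are wider after TAC in the group means and overlap between single libraries.

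Within groups, the same libraries were high or low for most of the 10 genes. Summed over the 10 genes, CPM was 232 to 353 in Sham Veh, 170.2 to 332 in Sham 29P, 626 to 1220 in TAC Veh and 479.5 to 1014 in TAC 29P libraries, so no TAC library was as low as any Sham library. TAC Veh 2 had the highest TAC Veh value for 9 of the 10 genes and the lowest for Fbln1, and TAC Veh 12 the lowest for 8. TAC 29P 3 was highest for 8 and TAC 29P 1 lowest for 7 of the 10, and Sham Veh 6 was lowest for 8. With group means removed, Pearson's r between pairs of the 10 genes over the 17 libraries ran from 0.09 (Fbn1 and Fbln5) to 0.86 (Fbn1 and Emilin1), with a median of 0.54 over 45 pairs. Eln went most closely with Mfap5 (0.81) and Mfap4 (0.80), and Fbln1 with Fbln5 (0.83). Over the 14 libraries without atrial transcripts the range was 0.12 to 0.91 and the median 0.64, with Efemp2 and Emilin1 highest and Fbn1 and Emilin1 at 0.85. There Eln went most closely with Mfap5 (0.81) and Emilin1 (0.76, with Mfap4 at 0.75), and Fbln1 with Mfap4 (0.80, with Fbln5 at 0.77). These correlations are descriptions, and the points share library depth and scaling.

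Outside the 10 genes, the transcript most like their mean log2 CPM with group means removed was Bgn, which encodes the small proteoglycan biglycan (r = 0.99 over 17 libraries, among 10669 genes with a mean CPM of at least 5). It was followed by Txndc5 (0.97), a protein disulfide isomerase of the endoplasmic reticulum, and by Dap, Serpinf1 and Tgif1. As measured, with group differences left in, Bgn was again first (0.99), followed by Serpinf1, Prnp, Pi16 and Adamts2. Mfap5 was most like Anxa1 (0.95), Fxyd5 and Serpinb6a, and rank 5 was held by Lox (0.92), the lysyl oxidase that cross-links elastin. Eln was most like Rpn2 (0.94), Mesd and Tubb2a, and Fbn1 like Oasl2 (0.92), Topbp1 and Stard4.

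Lysyl oxidases cross-link elastin and collagen. All 5 of their genes were called higher after TAC in Veh mice, against the 22.5% of all genes, with log2 fold changes of 2.49 for Loxl4, 2.19 for Lox, 1.88 for Loxl2 and 1.43 for Loxl1, all 5 also with TMM factors, under which 3.86% of all genes were. In 29P mice 4 of 5 were, against the 31.4% of all genes, the exception being Loxl4 (1.12, limma adjusted p = 0.102), and 3 of 5 with TMM factors, against 5.73%. The Loxl4 values rest on few reads, at 0.09 to 0.713 CPM in Sham Veh and 1.12 to 2.99 CPM in TAC Veh libraries. Lox was at 52.7, 12.9 and 38.4 CPM in TAC Veh libraries 2, 12 and 16 against 4.52 to 10.1 CPM in Sham Veh libraries. As for the 10 genes, TAC Veh 12 was the low library. Within TAC, by limma none of the 5 passed even the unadjusted threshold with 29P.

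Some latent TGF-β binding proteins anchor latent TGF-β to microfibrils, but not every member of the family does. Their transcripts do not measure that binding. Of the 4 binding proteins and 3 ligands, 6 of 7 were higher after TAC in both arms, against the 22.5% of all genes in Veh and 31.4% in 29P mice, all but Ltbp1 (0.05 in Veh mice, limma adjusted p = 0.844). The largest was Ltbp2, at 3.97 (standard error 0.55, limma adjusted p = 0.000672), from 2.76 to 7.04 CPM in Sham Veh to 101, 34.8 and 64.9 CPM in TAC Veh libraries 2, 12 and 16. Tgfb2 followed at 1.52, and the smallest calls were Tgfb1 at 1.02 and Ltbp3 at 1.22. With TMM factors 5 of the 7 were called in each arm, against 3.86% and 5.73% of all genes.

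The counts of the next 3 lists stand against the same 22.5% of all genes in Veh and 31.4% in 29P mice. Among the microfibril-associated ADAMTS and ADAMTS-like genes 5 of 8 were higher in Veh mice and 4 of 8 in 29P mice. Adamtsl2 (2.34) and Adamts17 (1.63) led in Veh mice, and Adamts6 (0.97) and Adamtsl5 (0.91) were the smallest. The Adamts17 value rests on few reads, at 0.25 to 0.671 CPM in Sham Veh and 1.08 to 1.87 CPM in TAC Veh libraries. Of 7 measured genes for proteases that can degrade elastin, 4 were higher in Veh mice, Ctsk (1.48), Mmp2 (1.43), Mmp14 (1.27) and Ctss (0.92), and 6 in 29P mice, while Mmp9 was not called in either. Of 8 chains of RGD-binding integrins, 4 were higher in Veh mice, Itgb5 (1.06), Itga5 (0.99), Itgav (0.57) and Itgb1 (0.50). Itgb3, the β3 chain of the receptor that 29P prefers, was at 0.74 (limma adjusted p = 0.250) in Veh and 1.35 (limma adjusted p = 0.0371) in 29P mice, and the difference between the arms was not called. In Sham 29P libraries 4, 14 and 15 Itgb3 was at 3.18, 0.705 and 3.11 CPM. It was at 9.82 CPM in TAC 29P 18, a library with atrial transcripts, and at 2.86 to 6.48 CPM in the other TAC 29P libraries. The Itgb3 value in 29P mice thus rested in part on the low Sham 29P 14 and the high TAC 29P 18. Of the 8 integrin chains 4 were called higher in 29P mice. Over the 14 libraries without atrial transcripts 3 were, against 30.2% of all genes. With TMM factors the counts in Veh mice fell to 4 of 8, 2 of 7 and 1 of 8 for these 3 lists, against 3.86% of all genes. In 29P mice they were 3 of 8, 3 of 7 and 2 of 8, against 5.73%.

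Relatives of the 10 genes did not all rise. Efemp1 (fibulin-3) was lower after TAC, at 4.21, 3.31, 6.23, 6.79 and 9.04 CPM in Sham Veh libraries 5, 6, 13, 19 and 20 and 2.79, 2.79 and 1.81 CPM in TAC Veh libraries 2, 12 and 16. The groups did not overlap, and the log2 fold change was −1.20 in Veh (limma adjusted p = 0.0488) and −1.16 in 29P mice (limma adjusted p = 0.0417). It was −1.54 and −1.51 with TMM factors, and over 14 libraries −0.87 in Veh mice (limma adjusted p = 0.0899), where the call was lost, and −1.45 in 29P mice. TAC 29P 18, with atrial transcripts, was at 7.24 CPM and the other 5 TAC 29P libraries at 1.59 to 2.95 CPM. Mmrn2, an endothelial multimerin, was higher, at 0.67 in Veh (limma adjusted p = 0.00800) and 0.70 in 29P mice (limma adjusted p = 0.00483), and lost the Veh call with TMM factors (0.34, limma adjusted p = 0.0594). Fbn2, Hmcn1 and Emilin2 were not called in either arm on deposited CPM. With TMM factors 0 of the 6 tested relatives were higher and 1 lower in Veh mice, against 3.86% and 5.75% of all genes. In 29P mice 2 were higher and 2 lower, against 5.73% and 4.96%. Fbln7 was called higher in 29P mice, where it was listed at 0 in 2 of 3 Sham 29P libraries, so no fold change is given. Emilin3 was below the filter, and Mmrn1 was not analysed here.

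**Figure D5:**
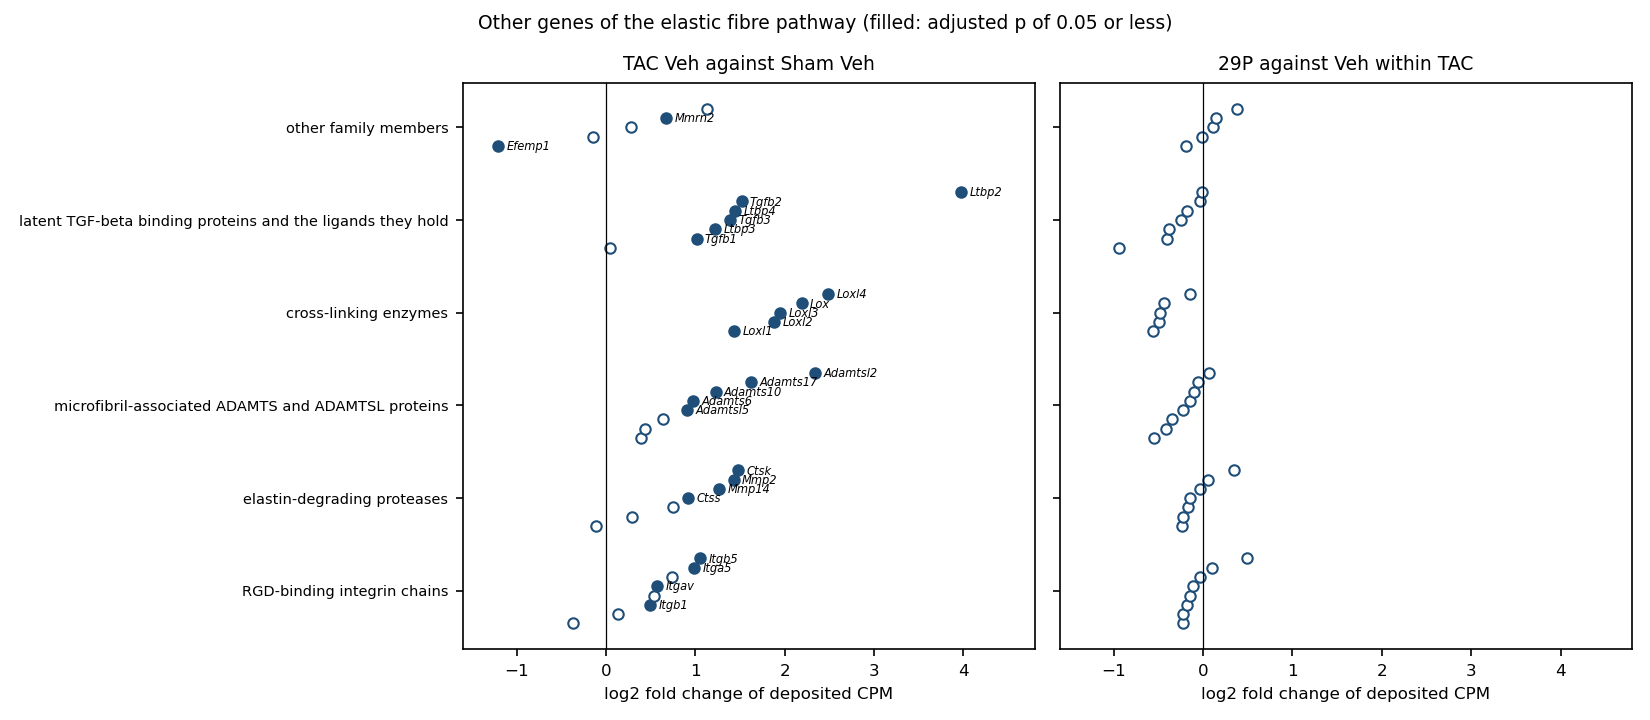
Log2 fold change on deposited CPM of the other genes of the elastic fibre pathway, 1 point per gene in 6 lists, for TAC Veh against Sham Veh (left) and 29P against Veh within TAC (right). Filled, named points passed an adjusted p of 0.05. All 5 cross-linking enzymes are filled on the left with Ltbp2 farthest right at 3.97, Efemp1 is filled below 0, and no point is filled on the right. Fbln7 is left out.

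Markers of several cell types differed between TAC and Sham libraries as well, and their counts stand against the 22.5% of all genes called higher in Veh and 31.4% in 29P mice. The 6 fibroblast markers, of which gelsolin (Gsn) was the most abundant, had summed CPM of 1541 ± 407 over the 5 Sham Veh and 1222 ± 263 over the 3 Sham 29P libraries (mean and SD). After TAC the sums were 2271 ± 286 over the 3 Veh and 2148 ± 465.7 over the 6 libraries from 29P mice. In Veh mice 3 of the 6 were called higher after TAC, Col1a1 (2.09), Lum (0.99) and Pdgfra (0.49), and in 29P mice 5. With TMM factors, under which 3.86% of all genes in Veh and 5.73% in 29P mice were called, 1 of 6 was in Veh and 2 of 6 were in 29P mice. The 5 markers of activated fibroblasts, led by Postn, summed to 104 ± 26.1, 71.6 ± 21.7, 1081 ± 509 and 661 ± 438 CPM in the same groups, and all 5 were called in both arms, 4 of 5 in each with TMM factors. By library this sum was 1506, 517 and 1221 CPM in TAC Veh 2, 12 and 16, and ran from 228 in TAC 29P 1 to 1454 in TAC 29P 3, the libraries that were also lowest and highest for most of the 10 genes. None of the 6 smooth muscle markers, of which Acta2 was the most abundant, was called in either arm (0 at an unadjusted p of 0.05 by limma in Veh and 2 in 29P mice), with sums of 285 ± 114 CPM in Sham Veh and 313 ± 70.9 CPM in TAC Veh libraries. The highest Sham sums were those of Sham Veh 19 (306 CPM) and 20 (469.8 CPM). Over the 14 libraries without atrial transcripts 2 of 6 were called higher in 29P mice, Tagln (0.80) and Cnn1 (1.08), against 30.2% of all genes. In Veh mice 0 were called, against 13.4% of all genes. There 3 were higher at an unadjusted p of 0.05 or less by limma, as were 5237 of the 16218 genes tested. Of the 6 cardiomyocyte markers 1, Tnni3 (−0.54), was called lower in Veh mice, against 1.91% of all genes. With TMM factors 3 were, against 5.75% of all genes, and 0 were over 14 libraries (2 at an unadjusted p of 0.05 by limma). In 29P mice 1, Actc1 (0.40), was called higher and none lower, against 1.12% of all genes lower. With TMM factors none was higher and 1 was lower, against 4.96% of all genes lower. Of 3 tested cartilage or valve markers 0 were called in Veh mice. In 29P mice 1 was called higher, also over 14 libraries, and 0 were with TMM factors. Cilp2 of this list was at 7.07, 6.28 and 9.88 CPM in TAC 29P 3, 9 and 18, and at no more than 0.545 CPM in the other TAC 29P libraries. It was at no more than 0.138 CPM in Sham 29P libraries, and at 7.86 and 11.3 CPM in Sham Veh 19 and 20. In bulk tissue, more cells of a type and more RNA per cell cannot be told apart, and the part of these markers in the changes of the 10 genes was not tested. The p-values measure the spread between libraries of 1 mouse each.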

How the data were processed

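Per the labels and the methods, RNA was extracted with TRIzol, and libraries of polyadenylated RNA were made with a NEBNext Ultra II kit. The authors used Partek Flow, with STAR 2.3.7 as aligner and mm10 as genome, summed reads per gene of a GENCODE annotation and deposited CPM values (reads scaled to a common library total) with 0.0001 added, in 1 table of 17 libraries. The library method names a strand specificity reagent, but the strand setting of the read counting is not given in the sources used here. The study describes the removal of libraries before deposit, a TAC Veh library among them because it clustered with Sham libraries, and these are not analysed here. Read counts were not recovered in full, since 80.2 to 82.7% of low values, and not all, were whole multiples of 1 read within 0.05 read.

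From the deposited CPM, log2 values were fitted with 1 mean per group in limma 3.58.1 (R 4.3.3, trend on mean level) over the 16218 genes with a CPM of at least 0.5 in at least 3 libraries. Benjamini-Hochberg adjusted p-values of 0.05 or less over all these genes were called, and tests were 2-sided. Alternatives were TMM and median-of-ratios factors, totals without mitochondrial-encoded genes, added constants of 0.1 and 1, other filters, the run of animal numbers or atrial markers as a covariate, only the groups compared, and each library left out. Leaving out the libraries with atrial transcripts was chosen after seeing the data. Fits were tested on simulated data.

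All 10 genes are named in each comparison. From 6 pathway lists the called genes are named, or the 2 largest and 2 smallest changes where over 4 were called, and other names were chosen after their values were seen. Members and lists were chosen with earlier results of these data known. Lengths, positions and coding bases are from GENCODE vM21 (GRCm38), read with Python 3.11.15.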

Additional observations from a re-analysis of the deposited data

How the results depend on the processing

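In the surgery comparisons all 10 genes kept their direction under every alternative run. The number of genes higher in TAC Veh than in Sham Veh mice was 9, and ran from 5 to 9 when single libraries were left out, the lowest being without TAC Veh 2. In 29P mice it ran from 6 to 9. Across single genes and alternatives, calls were lost 13 times in Veh and 8 times in 29P mice, all by Eln, Fbln5, Efemp2 or Mfap2, and the cause was not tested. Within Sham, 1 gene (Mfap4) passed an unadjusted p of 0.05, with lower values in 29P mice, and 0 passed after adjustment by limma. The median interaction was 0.12 and was −0.37 once animal-number runs entered as a covariate. Values of uncalled genes changed sign 17 times within TAC, 16 times within Sham and 58 times for the interaction.

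Groups of 3 libraries limit the precision. No paired analysis was possible because no replicate number occurs in more than 1 group, and the animal-number runs, which groups do share, were a covariate instead.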

Other observations

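The 5 red blood cell genes, of which Hbb-bs was the most abundant, were all higher in TAC Veh than in Sham Veh mice by limma, against 22.5% of all genes (0 of 5 against 3.86% with TMM factors and 0 of 5 against 13.4% over the 14 libraries without atrial transcripts, with 5 past an unadjusted p of 0.05 in both), with a median log2 fold change of 1.29, and none was called in 29P mice. Within TAC 29P mice had lower values for all 5, each past an unadjusted p of 0.05 by limma, with a median of −1.11, against 0.931% of all genes, and none passed adjustment. Their summed CPM was 4992, 3082 and 3328 in TAC Veh 2, 12 and 16, and in TAC 29P libraries it ran from 1036 to 4151. The highest TAC 29P value was in TAC 29P 3, the library that was also highest for most elastic fibre genes. The part of blood in the tissue was not tested.

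All 5 macrophage markers, such as Adgre1 (1.15) and Cd68 (0.89), were called higher after TAC in Veh mice, against 22.5% of all genes, and 1 of 5 was with TMM factors, against 3.86%. In 29P mice 5 of 5 were, against 31.4% of all genes, and 4 of 5 with TMM factors, against 5.73%. Pericyte markers gave 2 of 4 in each arm, and with TMM factors 1 of 4 in each, with 1 more called lower in 29P mice, against 4.96% of all genes. Endothelial markers gave 1 of 5 in Veh and 4 of 5 in 29P mice, and 0 of 5 in both with TMM factors (1 and 3 at an unadjusted p of 0.05 by limma). By limma on deposited CPM none of the 3 endocardial and none of the 3 tested epicardial or mesothelial markers was called in either arm, also at an unadjusted p of 0.05. In Veh mice 1 endocardial marker was lower at that unadjusted threshold with TMM factors, as were 2283 of the 16218 genes tested. Over the 14 libraries 1 was higher, as were 5237 of the genes tested. The endocardial median there was 0.33, against −0.34 over all libraries.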
